A study of Rattus norvegicus with 12 samples.

Results

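The miR-200 family comprises 5 microRNAs (miRNAs), miR-200a, miR-200b, miR-429, miR-200c and miR-141, which were followed across terminal differentiation of the rat parotid acinar cell, the serous secretory cell of this salivary gland. The family was taken by name: 7 of the 375 miRNA assays on the qRT-PCR panel belong to it, a mouse assay for each of the 5 miRNAs and a second, rat assay for miR-200b and miR-200c. The 12 samples were RNA of acinar cells cut by laser from parotid sections of albino Sprague Dawley rats, 3 samples at each of embryonic day 20 (E20) and postnatal days 5, 15 and 25 (P5, P15 and P25). The labels name no transgene and no treatment, so age is the only labelled factor, and the samples of an age came from separate litters. Tissue preparation also changed with age. By the methods, the gland was removed in animals older than P5, whereas embryonic and earlier postnatal heads were halved and embedded. By this wording E20 and P5 shared a preparation, as did P15 and P25. Between E20 or P5 and P15 or P25, age and preparation cannot be told apart. Acinar cells were picked by their structure and by vascular landmarks in stained sections. The paper reports that this choice was checked by parotid secretory protein staining of earlier samples, and that only caps with pure populations were kept. Protein-coding acinar markers were not measured on this panel. Within these data the labelled cell type was set beside other epithelial miRNAs and miRNAs of other cell types, given further on.

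miRNAs of this family are characteristic of epithelial cells. They are known to repress the transcription factors Zeb1 and Zeb2, which themselves silence the gene of the adhesion protein E-cadherin, and Zeb1 in turn represses both miR-200 gene clusters, so that the pair forms a double-negative loop that holds epithelial cells in their state. A miRNA recognizes its targets mainly through its seed, bases 2 to 8, and the family holds 2 seeds that differ at a single base, so its members are thought to share some targets and not others.

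The family lies in 2 genomic clusters, and all 5 hairpins were found in RefSeq's GRCr8 assembly. Mir200b, Mir200a and Mir429 lie on the minus strand within 1908 bases, chr5:171929682-171931589, inside the bounds of the annotated genes Ttll10 (protein-coding) and LOC106182250 (a long noncoding RNA). Mir200c and Mir141 lie on the minus strand within 509 bases, chr4:159209525-159210033, between the protein-coding genes Phb2 and Ptpn6. The sequences are shown because cluster and seed divide the family differently. Both mature strands in the table are given first, with the seed in capitals:
miR-200c-3p, chr4:159209969-159209989: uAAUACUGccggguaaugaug
miR-141-3p, chr4:159209540-159209561: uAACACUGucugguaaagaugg

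Counted from the 5′ end, these strands were identical at 17 of 21 compared positions. The differences, with the base of miR-200c-3p first, were U4C in the seed and C9U, G11U and U17A outside it. The hairpins of the other members each held 1 of these 2 seeds exactly once, again in capitals:
Mir200b hairpin, chr5:171931495-171931589: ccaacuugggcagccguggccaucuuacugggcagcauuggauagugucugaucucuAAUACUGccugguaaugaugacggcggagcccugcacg
Mir200a hairpin, chr5:171930717-171930805: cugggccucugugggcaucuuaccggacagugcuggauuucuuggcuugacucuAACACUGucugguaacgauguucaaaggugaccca
Mir429 hairpin, chr5:171929682-171929766: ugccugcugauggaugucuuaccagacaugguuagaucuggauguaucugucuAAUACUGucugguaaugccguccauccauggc

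The chr5 cluster therefore holds both seeds (AAUACUG in miR-200b and miR-429, AACACUG in miR-200a), as does the chr4 cluster (AAUACUG in miR-200c, AACACUG in miR-141). Of the 419 rat hairpins in the table, 0.955% held AAUACUG anywhere on the hairpin strand and 0.955% held AACACUG.

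Every member assay gave a threshold cycle (CT, the amplification cycle where fluorescence passes a set level) in every sample, 84 of 84 wells, whereas over all miRNA assays 3022 of 4500 wells did. The member CT values lay between 25.7 and 32.5, so no member value was imputed. The number of assays with a CT lay between 282 and 306 per sample at E20 and between 202 and 223 at P25. The lowest number, 179, belonged to P15 replicate 1, which stood apart from the other P15 samples (247 and 273) and is given separately where it decides a result. The interplate calibrator, a control template that each plate contains, averaged between 18.3 and 19.0 cycles.

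As deposited, the mean CT of the family differed between ages by less than the spread between samples. The mean CT of the 7 member assays was 28.7 ± 1.03 (SD, n = 3) at E20, 28.6 ± 1.79 at P5, 28.9 ± 2.49 at P15 and 28.4 ± 0.77 at P25. The array median, taken over the CT values of every miRNA detected in a sample, came later at the later ages, at 32.1 ± 0.19 (SD, n = 3) at E20 and 33.9 ± 0.27 at P25. Every level below is relative to this array median: the value of an assay is the array median CT minus its CT, a log2 scale on which 1 unit is about a 2-fold difference and a higher value is more miRNA. Values of different assays also depend on their primers, so an order between members is an order of these readings.

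**Figure D1:**
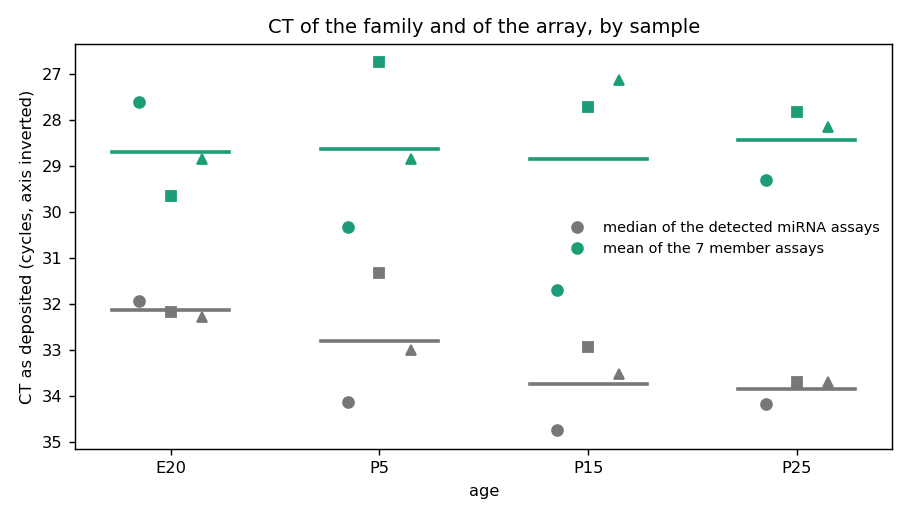
CT as deposited, in cycles on an inverted axis, by age for the 12 samples (circle, square and triangle are replicates 1, 2 and 3; bars are means of 3). The mean of the 7 member assays (green) stayed between 28.4 and 28.9 at the 4 ages, while the array median (grey) moved from 32.1 at E20 to 33.9 at P25.

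miR-200a, the middle gene of the chr5 cluster, was the member with the lowest level at E20. Its normalized value was 3.41, 0.98 and 2.46 at E20, 4.48, 4.42 and 3.17 at P5, 2.26, 4.79 and 5.61 at P15, and 4.34, 5.16 and 5.15 at P25 (replicates 1, 2 and 3 in this order here and below). All P25 samples lay above all E20 samples. The mean was 2.60 higher at P25 than at E20 (standard error 0.92, adjusted p = 0.0716, limma), a 6.06-fold difference that did not pass.

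miR-200b, the first gene of that cluster, was read by both assays. By the mouse assay it was at 5.07, 2.66 and 4.43 at E20, 3.53, 4.96 and 4.55 at P5, 3.18, 5.59 and 7.09 at P15, and 5.88, 6.77 and 6.21 at P25. By the rat assay it was at 4.32, 2.85 and 3.31 at E20, 3.34, 4.06 and 3.86 at P5, 2.82, 4.79 and 6.04 at P15, and 4.48, 5.26 and 4.74 at P25. In both assays the P25 samples were above every E20 sample, and E20 and P5 overlapped. The mouse assay was 2.23 higher at P25 (standard error 0.96, adjusted p = 0.138, limma). With the rat assay the difference was 1.34 (standard error 0.83, adjusted p = 0.288). Neither passed.

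miR-429, the last gene of the chr5 cluster, had the smallest difference in the family. It was at 4.69, 2.46 and 3.28 at E20, 4.18, 4.54 and 4.29 at P5, 2.74, 5.00 and 6.03 at P15, and 3.44, 5.17 and 4.80 at P25. Here E20 and P25 overlapped, with P25 replicate 1 below E20 replicate 1. The mean was 1.00 higher at P25 (standard error 0.90, adjusted p = 0.466, limma). Single samples moved this difference, to 0.49 without E20 replicate 2, 0.64 without P25 replicate 2, 1.51 without P25 replicate 1 and 1.60 without E20 replicate 1.

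miR-200c, of the chr4 cluster, gave the highest mean readings of the family at P15 and P25, ahead of the mouse assay of miR-200b by less than the spread between samples. By the mouse assay it was at 4.52, 2.84 and 3.59 at E20, 3.73, 4.76 and 4.57 at P5, 3.07, 5.64 and 7.27 at P15, and 6.24, 7.04 and 5.93 at P25. By the rat assay it was at 4.69, 3.80 and 4.44 at E20, 3.59, 4.43 and 4.27 at P5, 3.88, 6.12 and 7.83 at P15, and 5.74, 7.17 and 6.12 at P25. E20 and P5 overlapped in both assays, and every P25 sample was above every E20 and every P5 sample. From E20 to P25 the mouse assay differed by 2.75 (standard error 0.94, adjusted p = 0.0635, limma), a 6.73-fold difference and the largest among the 7 assays. Without P25 replicate 1 or P25 replicate 2 the difference of miR-200a was the larger (2.87 against 2.83, and 2.46 against 2.43). With the rat assay it was 2.03 (standard error 0.90, adjusted p = 0.139). Neither assay passed, although with the replicate number as a block over all 12 samples, E20 included, the mouse assay did (adjusted p = 0.0490, limma).

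miR-141, the neighbour of miR-200c, was at 3.52, 2.14 and 2.60 at E20, 3.84, 4.81 and 4.33 at P5, 3.36, 4.46 and 4.89 at P15, and 3.99, 4.48 and 5.84 at P25. Unlike miR-200c, it was above its E20 range in every P5 sample. The mean was 2.02 higher at P25 than at E20 (standard error 0.76, adjusted p = 0.0927, limma) and did not pass. At E20, replicate 2 was the lowest sample in all 7 member assays.

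**Figure D2:**
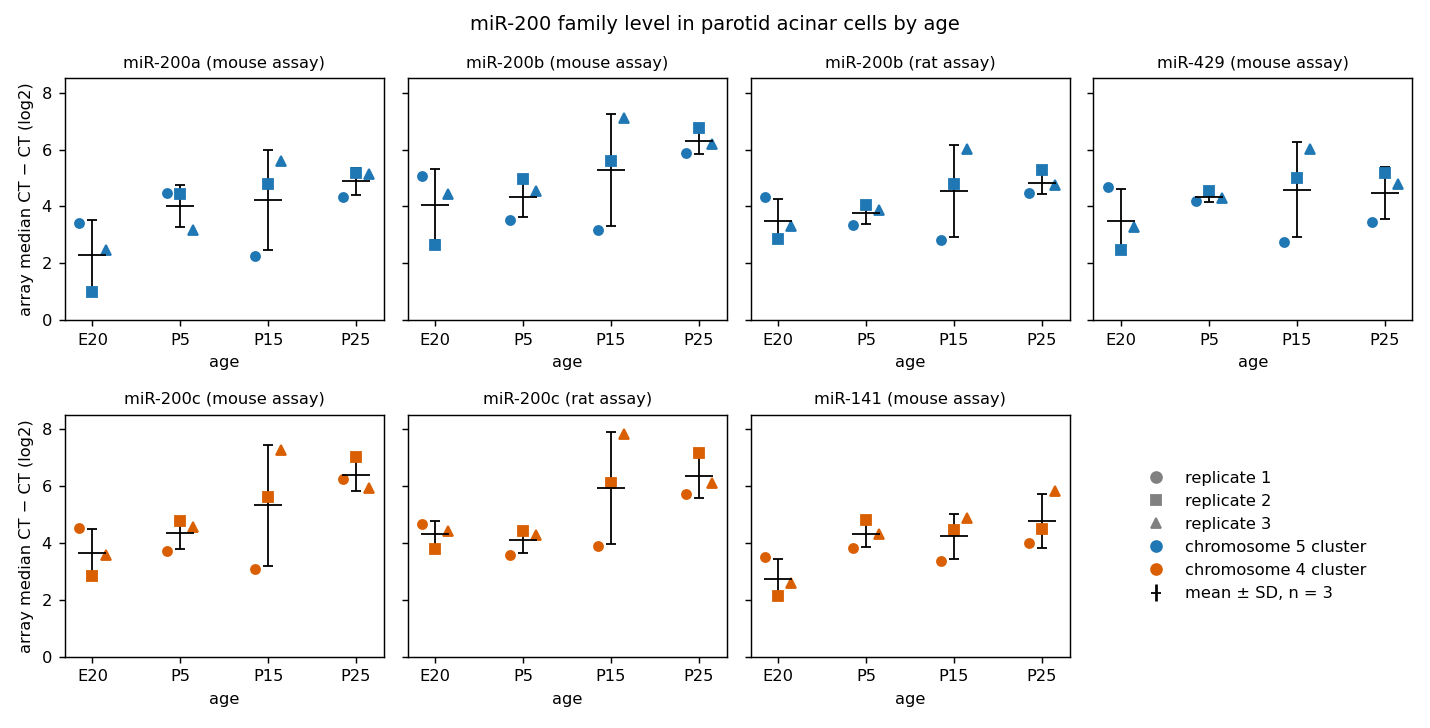
Normalized level (array median CT minus CT, log2) of each member assay by age; points are samples (symbol by replicate), black marks are mean ± SD of 3. In 6 of the 7 assays, all but miR-429, every P25 sample lies above every E20 sample, and P15 replicate 1 (circle) lies lowest at P15 in every assay.

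All 7 member assays had a higher mean at P25 than at E20, and 0 of 7 passed at an adjusted p-value under 0.05, against 12.0% of the 192 assays tested in either direction and 4.17% called higher at P25. At an unadjusted p-value under 0.05, 5 of 7 passed, against 14.6% of all tested assays that passed in the same direction. In 6 of 7 assays every P25 value exceeded every E20 value, against 21.8% of the 156 tested assays measured in all 6 samples. The median difference over the member assays was 2.03, and over all tested assays it was 0.15. By the size of the increase the members ranked from 11 (miR-200c, mouse assay) to 59 (miR-429) among the 192. An exact two-sided permutation test of 3 samples against 3 gave 0.1, the smallest p it can give, for the 6 assays without overlap and 0.2 for miR-429.

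**Figure D3:**
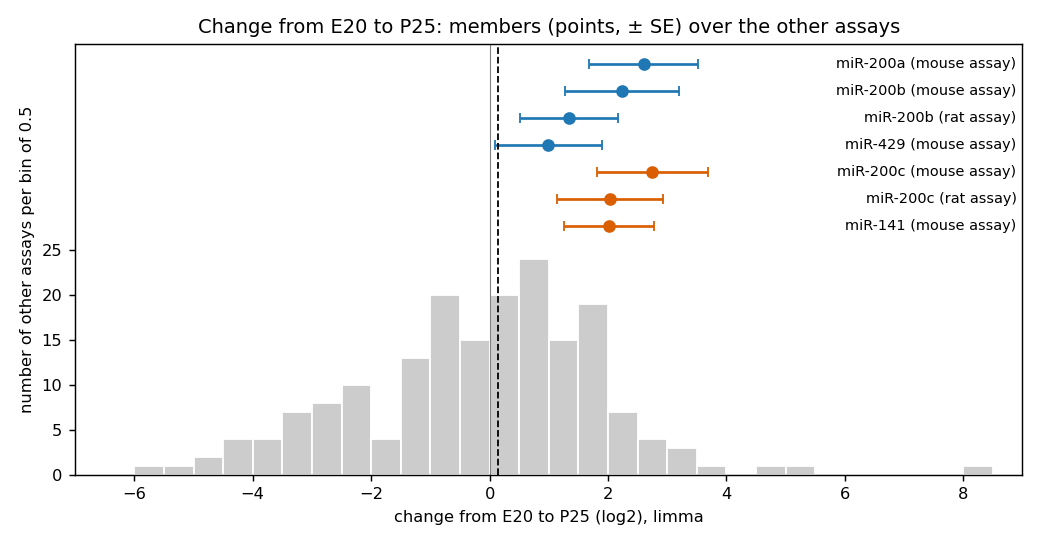
Difference from E20 to P25 (log2, limma) of the 7 member assays (points ± standard error, chr5 cluster in blue and chr4 cluster in orange) over a histogram of the other tested assays; the dashed line is the median of all 192, 0.15. The members lie between 1.00 and 2.75, to the right of that line.

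Rank by CT within a sample uses no array reference, although it compares assays whose primers may amplify with unequal efficiency. miR-200c by its mouse assay ranked 23, 49 and 28 among the assays with a CT in the E20 samples and 3, 4 and 12 in the P25 samples. miR-200a ranked 44, 113 and 57 at E20 and 21, 20 and 18 at P25. Both therefore stood nearer the top of every P25 sample than of any E20 sample. miR-429 ranked 16, 65 and 36 at E20 and 41, 19 and 26 at P25, and the rat assay of miR-200b 26, 48 and 33 at E20 and 18, 18 and 29 at P25, and in both the ages overlapped. By rank 5 of 7 member assays thus separated the ages, against 41.0% of the 156 tested assays measured in all 6 samples.

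Across the 4 ages, limma's F test called 0 of 7 member assays (7.81% of all tested), and none had an unadjusted p under 0.05, against 40 of the 192. The smallest adjusted F p-value among them was 0.233, for both miR-200c assays. A linear trend over age in days was called for 1 of 7, the mouse assay of miR-200c, which rose by 1.01 per 10 days (standard error 0.33, adjusted p = 0.0493, limma). For comparison, 14.1% of all tested assays were called for a trend and 4.69% for a rising one. At an unadjusted p under 0.05 the rising trend was passed by 5 of 7, against 14.6% of all. The rat assay of miR-200c was just outside, with 0.89 per 10 days (adjusted p = 0.0645, and 0.0412 with the replicate block), and by p miR-200a came next, with 0.85 (adjusted p = 0.0814). The call for miR-200c was lost in 10 of the 12 fits that each left out 1 sample, and held in those without P15 replicate 1 and without P15 replicate 3. Without P15 replicate 1, 4 of 7 assays were called between E20 and P25 (20.4% of all tested in that fit) and 4 of 7 for the trend. The share of all tested assays called for the trend in that fit was not computed, so the latter count has no background.

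No step between neighbouring ages was called in any member. None of the 7 passed from E20 to P5 (adjusted p between 0.631 and 0.944, limma), from P5 to P15 (0.779 to 0.989) or from P15 to P25 (0.932 to 0.978), and neither did any of the 192 tested assays (0.00% for each step). At an unadjusted p under 0.05, 0 of 7 members and 15, 12 and 17 of the 192 passed these steps in turn. From E20 to P15 the 7 assays differed by 1.06 to 1.94 and none passed (adjusted p between 0.240 and 0.454), nor did any of the 192 (0.00%), of which 40 passed unadjusted against 0 members. Between P5 and P25, 0 of 7 were called, against 3.12% of all tested. Here 2 of 7 had an unadjusted p under 0.05, against 7.81% of all tested that passed with a higher mean at P25, and both were assays of miR-200c, with differences of 2.05 (mouse, adjusted p = 0.282) and 2.25 (rat, adjusted p = 0.244). The replicate spread was widest at P15, where the SD of the mouse assay of miR-200c was 2.12, against 0.84 at E20, 0.55 at P5 and 0.57 at P25.

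Both the size and the standard error of the E20 to P25 difference depended on what was subtracted from each array. With a median restricted to the 120 assays that had a CT in every sample, 5 of 7 were called (20.8% of all tested), namely miR-200a, miR-141, both miR-200c assays and the mouse assay of miR-200b. The median difference was 2.27 there, against 2.03 with the array median. The standard error was 0.69 against 0.92 for miR-200a, and 0.69 against 0.94 for the mouse assay of miR-200c. With the array median taken after imputation, 6 of 7 were called, all but miR-429 (24.5% of all tested). With the small nuclear RNAs the differences were larger, with a median of 3.04, but limma called 0 of 7 and 0 of all 192 assays, and these RNAs were themselves spread between 20.5 and 32.4 cycles over the samples. With no reference the median was 0.31, and miR-429 and the rat assay of miR-200b turned to -0.73 and -0.39. The gap between the median of the members and the median of all tested assays was 1.89 under each of these references, since a reference moves all assays alike.

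**Figure D4:**
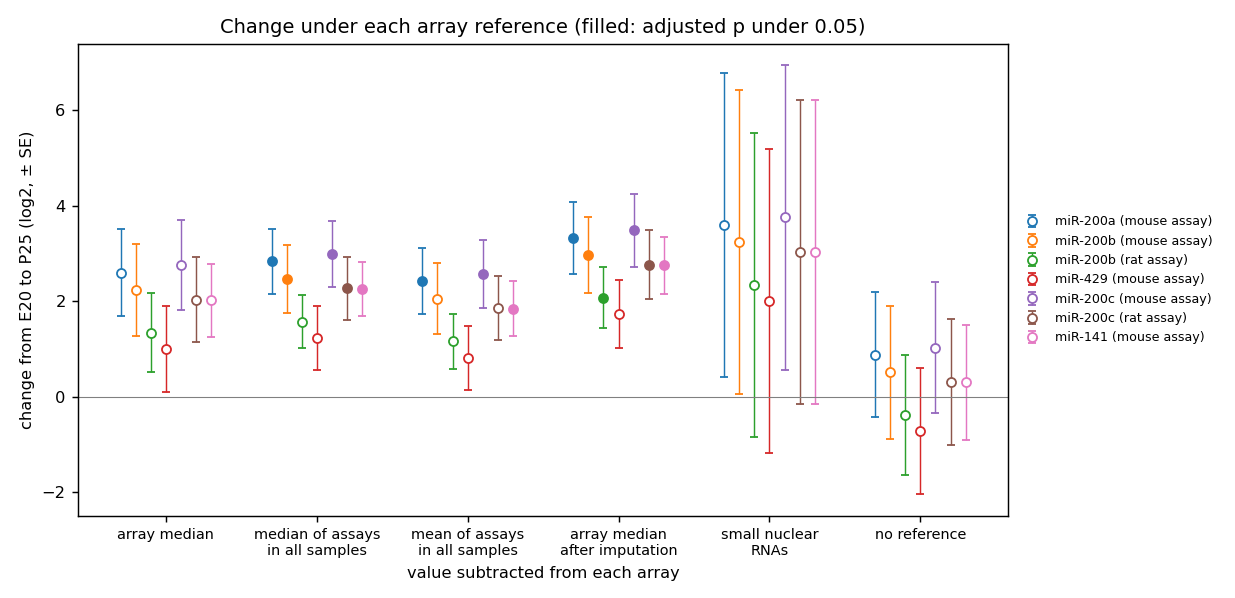
Difference from E20 to P25 (log2 ± standard error) of each member assay under 6 array references; filled points have an adjusted p under 0.05 in limma. Each reference moves all members alike, so their order, with miR-200c (mouse assay) highest and miR-429 lowest, is the same throughout by construction. The whole set moves from a median of 3.04 with small nuclear RNAs to 0.31 with no reference.

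Whether the 2 genomic clusters kept pace was described within each sample, as the mean of miR-200a, miR-200b and miR-429 minus the mean of miR-200c and miR-141, both assays of a miRNA averaged first. The array reference cancels in this difference. It was 0.20, -0.66 and -0.10 at E20, 0.28, -0.21 and -0.49 at P5, -0.75, -0.17 and -0.15 at P15, and -0.67, -0.35 and -0.79 at P25. The mean went from -0.19 at E20 to -0.60 at P25, a difference of -0.41 beside a within-age SD of 0.36, and the ages overlapped. It was -0.22 without E20 replicate 1 and -0.65 without E20 replicate 2. The cluster means themselves were 1.79 (chr5) and 2.21 (chr4) higher at P25. Since the members are a chosen set, no p-value was computed for these differences.

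The seed groups were compared in the same way, as the mean of miR-200b, miR-200c and miR-429 (AAUACUG, as printed above) minus the mean of miR-200a and miR-141 (AACACUG). This difference was 1.20, 1.29 and 1.19 at E20 and -0.40, -0.07 and 0.55 at P5, so these ages did not overlap. It was 0.26, 0.73 and 1.46 at P15 and 0.70, 1.27 and -0.06 at P25, which overlapped with E20. The mean was 1.20 lower at P5 than at E20, beside a within-age SD of 0.51, and 0.59 lower at P25 than at E20. The latter difference was -0.90 without P25 replicate 2 and -0.24 without P25 replicate 3. The step to P5 was singled out after its values were seen. With the mouse assays alone it was -1.04, again without overlap. Such separation was common: among 276 pairs of other single assays, described below, 40.6% of differences did not overlap between E20 and P5 either.

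Seen by member, the AACACUG pair had the larger of its mean differences before P5, and miR-200b and miR-200c had theirs after it. From E20 to P5 the fitted difference was 1.74 for miR-200a and 1.58 for miR-141, against 0.29 and 0.26 for the mouse and rat assays of miR-200b, and 0.70 and -0.21 for those of miR-200c. From P5 to P25 it was 0.86 for miR-200a and 0.44 for miR-141, against 1.94 and 1.08 for miR-200b, and 2.05 and 2.25 for miR-200c. miR-429 differed by 0.86 in the first interval and 0.13 in the second. These comparisons share the P5 samples, and none passed the test after adjustment.

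**Figure D5:**
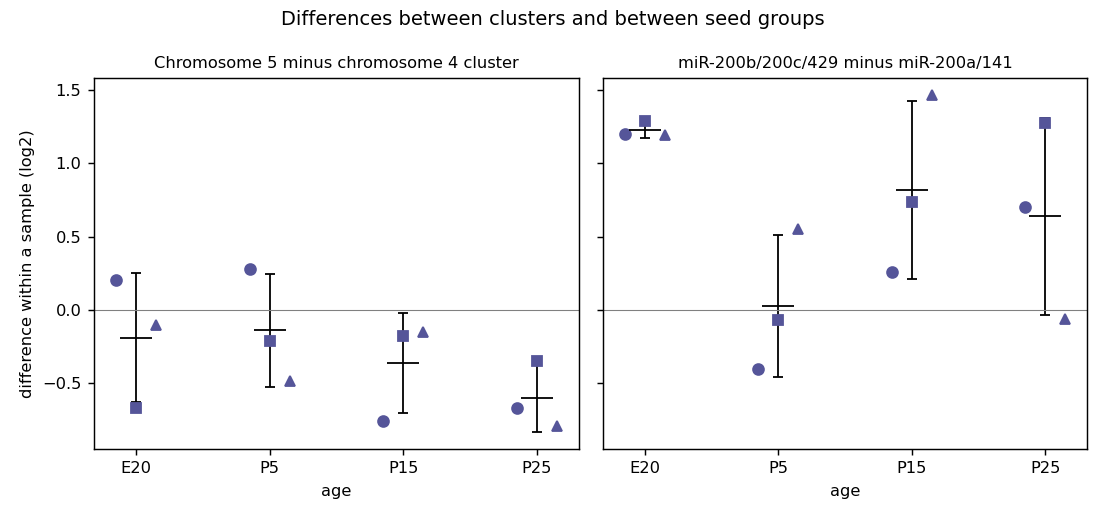
Differences within each sample (log2) between the genomic clusters (left) and between the seed groups (right), by age; points are samples (circle, square and triangle are replicates 1, 2 and 3) and black marks are mean ± SD of 3. The cluster difference overlaps between all ages, while the seed group difference lies between 1.19 and 1.29 at E20 and between -0.40 and 0.55 at P5.

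Pairs of members were followed by the SD of their difference over the 12 samples, where a low SD means that they ran in parallel. The median SD over the 10 pairs was 0.73, with the mouse and rat assays of a miRNA averaged first. It was 1.29 over the 276 pairs of the 24 other assays that were measured in all samples at a mean CT no later than the latest member. Those are pairs of single assays, so the comparison is not like for like. The closest pair was miR-200b and miR-200c (SD 0.37), which lie in different clusters and share a seed. As printed above, their sequences are nearly the same beyond the seed too, as are those of miR-200a and miR-141. Whether the assays tell such sequences apart was not tested. The widest was miR-200c and miR-141 (SD 1.04), which are neighbours in the genome with different seeds. The median SD was 0.72 for the 4 pairs of the same cluster and 0.77 for the 6 pairs across clusters, and 0.67 for the 4 pairs of the same seed and 0.77 for the 6 pairs across seeds, so neither grouping separated the pairs clearly.

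The pairs that differed most between E20 and P25, named here after their values were seen, both held miR-429. miR-200a minus miR-429 was -1.28, -1.48 and -0.81 at E20 and 0.91, -0.01 and 0.34 at P25, a difference of 1.61 without overlap. miR-429 minus miR-200c, across clusters, was 0.09, -0.86 and -0.74 at E20 and -2.55, -1.93 and -1.22 at P25, a difference of -1.40 without overlap. In both pairs miR-429 was the member that stood lower relative to its partner at P25. Of the 10 member pairs, 4 had differences that did not overlap between E20 and P25 and 4 between E20 and P5, below or near the 54.0% and 40.6% of pairs of the 24 other assays.

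The mouse and rat assays of the same miRNA give a scale for such differences. For miR-200b, mouse minus rat was 0.75, -0.19 and 1.12 at E20 and 1.40, 1.51 and 1.47 at P25, a difference of 0.90 without overlap. For miR-200c it was -0.17, -0.96 and -0.84 at E20 and 0.50, -0.14 and -0.19 at P25, a difference of 0.72 with overlap. The differences between clusters and between seed groups from E20 to P25 (-0.41 and -0.59) were of a size with these. From E20 to P5, mouse minus rat differed by 0.03 for miR-200b, with overlap, and by 0.92 for miR-200c, without overlap. The seed group step over the same interval was -1.20, or -1.04 with the mouse assays alone.

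Among the 113 other assays measured in all 12 samples, the 5 whose values ran most parallel to the mean of the member assays were miR-99a (SD of the difference 0.55, Pearson r = 0.89), miR-30b (0.56, r = 0.88), miR-101a (0.58, r = 0.88), miR-23b (0.60, r = 0.86) and miR-26a (0.62, r = 0.85). By the same measure, single member assays lay between 0.35 (rat assay of miR-200b) and 0.77 (miR-141) from the mean of the assays of the other members. The 5 assays named here thus ran as closely to the family as some of its members did. These are descriptions over 12 samples that share the array reference and the ages. None of the 5 was called between E20 and P25, with differences between 0.59 (miR-23b) and 1.93 (miR-101a).

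Of 5 other miRNAs known from epithelia (miR-203, miR-205, miR-183, miR-96 and miR-182), 0 passed the limma test between E20 and P25. The mean was lower at P25 for 4 and higher for miR-96 (0.07), and the median difference was -0.98. miR-205, which also targets Zeb1 and Zeb2, was at 6.75 at E20 and 4.52 at P25 (difference -2.23, standard error 0.76, adjusted p = 0.0626). Of the miRNAs known for restraining epithelial-mesenchymal transition (miR-203, miR-205 and the miR-34 genes), 3 of 7 assays could be tested and 0 passed. These were miR-203 (-2.13) and miR-205, both already counted above, and miR-34a, with a difference of 2.15 (standard error 0.95, adjusted p = 0.139, limma). Of those known for promoting it (miR-9, miR-10b, miR-21 and miR-155), 2 of 4 could be tested and 0 passed, with a median of 0.55.

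miRNAs of other cell types also differed between the ages, and are given as the log2 of a list's summed level per sample. The striated muscle list (miR-1, miR-133a, miR-133b and miR-206) lay between 4.36 and 6.23 at E20 and between 0.17 and 1.88 at P25. In this list all 3 tested assays had a lower mean at P25. Of these, 2 passed, miR-1 with a difference of -3.28 (adjusted p = 0.0331, limma) and miR-133b with one of -4.07 (adjusted p = 0.0376). The assay of miR-133a, with a difference of -4.15, did not pass, and miR-206 had no CT in any P25 sample. The mesenchyme and smooth muscle list (miR-199a, miR-214, miR-143 and miR-145) lay between 5.79 and 6.36 at E20 and between 6.51 and 7.41 at P25, and 2 of 6 tested assays passed, miR-145, which rose by 4.74 (adjusted p = 0.0388), and miR-214, which fell by 4.53 (adjusted p = 0.00466, limma). The leukocyte list lay between 1.98 and 3.00 at E20 and between 1.65 and 3.24 at P25, and 0 of 4 passed. miR-126, of endothelium, lay between 2.56 and 3.93 at E20 and between 2.71 and 4.88 at P25 and did not pass. The neuronal list lay between 0.51 and 4.84 at E20 and between -0.10 and 3.78 at P25, with 0 of 2 passing. Of the erythroid list 0 of 3 assays could be tested; it lay between 0.88 and 2.70 at E20 and at most at 0.94 at P25. The part of these cells in the family's values was not tested. In RNA of captured tissue, fewer cells of a type and less RNA per cell cannot be told apart.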

How the data were processed

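miRNA was measured by qRT-PCR (Exiqon Mouse&Rat panel I, SYBR green) in total RNA of laser-captured parotid acinar cells, 12 samples, 3 per age. The authors deposited 1 score per well, the threshold cycle (CT), which is logarithmic and was neither normalized, imputed nor pooled; undetermined wells were read as missing. The deposited row of array medians served only as an alternative, and control wells entered no test.

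All other values were computed here. A CT under 40 counted as detected. Assays detected in at least 2 of 3 samples at every age (192) were tested. Each value was the array median (over all detected miRNA assays of the sample) minus the CT, and missing values (122 wells, none of a member) were imputed from 10 nearest neighbors. Group means were fitted over all 12 samples with limma 3.58.1 in R 4.3.3, with Benjamini-Hochberg adjustment over the 192 assays and a threshold of 0.05. The trend was the first orthogonal polynomial of age in days, with E20 at -2. The procedure was also run on simulated assays drawn independently, with known changes larger than any difference of a member. That run does not cover differences of the members' size. Figures used matplotlib 3.10.9.

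The family, the marker lists (other epithelial miRNAs, miRNAs restraining or promoting epithelial-mesenchymal transition, mesenchyme and smooth muscle, leukocytes, erythroid cells, endothelium, striated muscle, neurons), the named miRNAs (all members and the 5 most parallel assays) and the tests were chosen with earlier results of these data known. The labels call the samples biological replicates; p-values measure the spread between them. The number of arrays limits the precision.

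The ages share replicate numbers, and neither labels nor methods say what a number marks across ages. Deviations from the age means correlated above 0.1 in 9 of 9 same-numbered pairs among P5, P15 and P25 (from 0.126 to 0.563). Among pairs with E20, 1 of 9 did (from -0.234 to 0.123). No pairs of unlike number were set beside these, so they do not establish a pairing. Replicate 1 also had the fewest assays with a CT at P5, P15 and P25 (224, 179 and 202). At E20 that was replicate 3 (282). Its part in these correlations was not tested. The main fit assumed no pairing. The replicate block covered all 12 samples, so it also paired E20, for which these correlations give little basis. Sequences are from RefSeq's GRCr8 tables, in which all 5 members had a hairpin and 2 a mature 3p strand.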

Additional observations from a re-analysis of the deposited data

How the results depend on the processing

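Results were recomputed under 30 alternatives, 12 of which each left out 1 sample, and the group differences also with the mouse assays alone, chosen after seeing the data. Of 620 recomputed values, 521 stayed the same, 36 moved, 38 passed newly, 20 no longer passed and 5 turned sign. The same meant direction and side of the threshold kept, a count of calls unchanged, or, untested, a value within the spread between replicates. Among the 521 are cluster and seed group differences that most alternatives could not move, as given below. The E20 and P25 samples alone gave no test across ages and no trend. The number of member assays called between E20 and P25, 0 of 7 as reported, was 5 with a median reference and 3 with a mean reference restricted to assays with a CT in every sample (20.8% and 18.2% of all tested assays, against 12.0%), 6 with imputation before the array median (24.5%), 2 with the E20 and P25 samples only (18.2%) and 1 with the replicate block (16.7%), the mouse assay of miR-200c (adjusted p = 0.0490, limma). It ranged from 0 to 4 with a sample left out, 4 without P15 replicate 1 and 1 without P15 replicate 3. The number called across the 4 ages, also 0, was 4 with imputation before the array median and ranged from 0 to 2 with a sample left out, 2 without P15 replicate 1. The number called for a linear trend, 1 as reported, was 6 and 3 with these restricted median and mean references, 6 with imputation first and 2 with the replicate block. It was 0 with the small nuclear RNAs, no reference, the deposited array medians, a CT limit of 37 or 35, detection at 1 or more ages or in all 12 samples, missing values left out or set to CT 40, and unmoderated statistics. It ranged from 0 to 4 with a sample left out, and was 0 without any 1 of the E20, P5 or P25 samples or P15 replicate 2. For the 4 ages and for the trend, the share of all tested assays called was not computed under the alternatives. Those counts therefore cannot be read as particular to the family. The replicate block called 0 member assays across the 4 ages and between each other pair of ages, as the fit without it did, while over all assays the calls from E20 to P15 went from 0 to 11. The marker lists were not refitted with the block. The cause of these changes was not tested.

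The median difference of the member assays from E20 to P25, 2.03, was 3.04 with the small nuclear RNAs and 0.31 with no reference, and ranged from 1.71 to 2.41 with a sample left out. With no reference 5 values turned sign: the difference from E20 to P25 to -0.73 for miR-429 and -0.39 for the rat assay of miR-200b, and the trend coefficient to -0.66 and -0.26 for these and to -0.068 for miR-141. The cluster and seed group differences from E20 to P25 could be moved only by leaving out an E20 or P25 sample, which gave -0.65 to -0.22 and -0.90 to -0.24, and by using the mouse assays alone, which gave -0.44 and -0.32, since a reference cancels in them and no member value was missing. The seed group step from E20 to P5, with alternatives chosen after the values were seen, lay between -1.46 and -0.98. The small nuclear RNA reference used the RNAs with a CT in all samples. The number of arrays limits what can be called.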
